A study of Mus musculus with 32 samples.

Results

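Dppa1, Dppa2, Dppa4, Dppa5a, Khdc1a, Khdc1b and Khdc1c are 7 mouse genes of the early embryo and the germ line, taken here by symbol. All 7 were found in each of the 3 deposited expression tables, which held 24013 genes in the stage table and 22536 genes in each of the knockdown tables. Their RNA was followed from the MII oocyte to the inner cell mass and embryonic stem cells, and in embryos injected with siRNA against Nr5a2 or Gata4. By stage, Khdc1b was highest in MII oocytes, Khdc1a and Khdc1c had their highest value in zygotes, and all 3 Khdc1 genes were listed at 0 in embryonic stem cells. Dppa2 and Dppa4 were highest in 8-cell embryos, and Dppa5a and Dppa1 in the inner cell mass. Khdc1b rose in 8-cell embryos after Nr5a2 knockdown, no other member passed the test there, and none did after Gata4 knockdown.

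DPPA2 and DPPA4 are DNA-binding proteins with a SAP domain that act as a pair, sit at promoters in pluripotent cells, and are known as activators of genes of the 2-cell stage. DPPA5 (also called ESG1) and the KHDC1 proteins carry a KH domain, an RNA-binding fold, and belong to a family of oocyte and embryo genes that also holds Ooep and Khdc3. KHDC1A has been placed at the endoplasmic reticulum, where it can repress translation. Dppa1 was named for its association with pluripotent cells, and its function is less well known.

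The study sequenced polyadenylated RNA from MII oocytes (C57BL/6N; 2 samples), from zygotes and early 2-cell, 2-cell, 4-cell and 8-cell embryos of C57BL/6N mothers and DBA/2N fathers (2 samples each), from the inner cell mass (ICM) of the same cross (3 samples), and from R1 mouse embryonic stem cells (mESC; 2 samples) grown in LIF and serum. The mothers were superovulated, the zona pellucida was removed, and the ICM was isolated by immunosurgery, which kills the outer trophectoderm. Injected embryos of the same cross were cultured in CZB medium with glutamine to the 8-cell stage (4 control and 4 Nr5a2 knockdown samples) or the blastocyst stage (3 control and 4 Gata4 knockdown samples). NR5A2 is a nuclear receptor and GATA4 a zinc-finger factor of the primitive endoderm, and what the control embryos received is not given in the sources used here. How many embryos went into a sample is also not given, so the p-values speak for the spread among these samples alone, part of which may be technical.

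The coding sequences show which of these genes can be told apart by short reads. Coding sequences were taken from GENCODE M21 (GRCm38), and the first 90 coding bases of the 3 Khdc1 genes are given below, with capitals where a base differs from Khdc1b.
Khdc1b: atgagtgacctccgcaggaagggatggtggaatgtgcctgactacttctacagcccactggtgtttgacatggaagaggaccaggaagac
Khdc1a: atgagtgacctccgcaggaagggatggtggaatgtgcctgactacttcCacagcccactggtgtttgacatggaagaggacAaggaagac
Khdc1c: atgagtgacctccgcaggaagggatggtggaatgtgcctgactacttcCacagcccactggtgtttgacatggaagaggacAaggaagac

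Khdc1a and Khdc1c had the same 90 bases, and their coding sequences of 501 bases differed at 1 position only (T416C, counted from the first base of the start codon, with the Khdc1a base first). The window around that base is shown because it is the only coding sequence that separates the pair.
Khdc1a: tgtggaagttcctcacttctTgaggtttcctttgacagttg
Khdc1c: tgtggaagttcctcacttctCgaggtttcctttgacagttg

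Over whole transcripts the pair was 98.1% identical, with 36 of 1934 aligned bases different, so most separating positions lay outside the coding sequence. Khdc1b shared 93.2% of 381 aligned coding bases with each of the other two, and 82.0% of 1908 aligned transcript bases with Khdc1a. No transcript matched the coding sequence of Khdc1b or of Dppa1 with 95% or more of bases identical across 50% or more of its length. Khdc1a and Khdc1c matched each other at that limit, and Dppa2 had 2 such matches, Dppa4 had 1 and Dppa5a had 6. The levels of Dppa2, Dppa4, Dppa5a, Khdc1a and Khdc1c are therefore uncertain, since reads may have been assigned to a copy. Of the copies outside the member list, Gm6083 and Pigp, which match Dppa5a, had rows in the stage table, at 139 and 57.2 FPKM in the ICM against 12622 FPKM for Dppa5a. The starts of Dppa5a and of its copy Dppa5b show how close such a match is, with capitals where Dppa5b differs.
Dppa5a: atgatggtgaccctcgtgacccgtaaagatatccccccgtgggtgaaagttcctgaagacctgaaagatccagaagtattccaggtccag
Dppa5b: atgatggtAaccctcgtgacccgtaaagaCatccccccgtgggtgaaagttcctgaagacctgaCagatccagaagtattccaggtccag

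RefSeq gives Khdc1c as another name of Khdc1b, and Khdc1b as another name of Khdc1c, so the symbols alone do not settle which of these loci a row of the deposited tables stands for. The names below are those of the tables, and sequences are those of the current annotation under the same name. In that annotation Khdc1a, Khdc1c and Khdc1b lie in this order on chromosome 1, Dppa4 and Dppa2 are next to each other on chromosome 16, Dppa5a is next to Ooep on chromosome 9, and Dppa1 is on chromosome 11.

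The 250 bases before the start site were found in the RefSeq table (GRCm38.p6, a later build than the mm9 of the files) for 2 of the 7 members, Khdc1b and Dppa1. They are shown because no other member had such a sequence there. Both are printed in the direction of the gene, with capitals at matches to the GATA motif AGATAA on either strand.
Khdc1b, chr1:21383306-21383555, plus strand: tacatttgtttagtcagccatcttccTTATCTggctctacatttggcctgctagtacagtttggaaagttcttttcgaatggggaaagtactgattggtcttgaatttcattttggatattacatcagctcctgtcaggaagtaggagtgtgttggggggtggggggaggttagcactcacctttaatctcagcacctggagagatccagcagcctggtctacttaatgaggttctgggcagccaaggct
Dppa1, chr11:46629275-46629524, minus strand: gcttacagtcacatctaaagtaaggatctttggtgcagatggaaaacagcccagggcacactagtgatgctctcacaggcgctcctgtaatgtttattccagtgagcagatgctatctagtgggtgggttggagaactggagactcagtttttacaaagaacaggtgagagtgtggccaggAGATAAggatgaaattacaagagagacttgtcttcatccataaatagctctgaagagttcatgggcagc

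The GATA match began at position -69 from the start site in Dppa1 and, on the other strand, at -224 in Khdc1b. Of 32851 upstream sequences of this length, 9.99% held AGATAA on either strand. The nuclear receptor motif AAGGTCA, which NR5A2 can bind, was in neither sequence and in 4.08% of all. These matches describe letters in a window and say nothing of binding.

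The tissue labels were checked against marker genes. The 5 oocyte markers (Zp1, Zp2, Zp3, Gdf9 and Bmp15) summed to 4808 FPKM in MII oocytes, and the 5 cumulus cell markers to at most 1.66 FPKM at any stage. The 5 epiblast markers were all at 1 FPKM or more in ICM and mESC, with sums of 1016 and 405 FPKM, and trophectoderm markers summed to 167 FPKM in the ICM. Read totals were not used here. The spacing of low values gave relative depths of 1 to 2.91 in the 8-cell knockdown libraries. Among blastocyst libraries it could be read only within those with the ribosomal precursor Rn45s (1 to 1.59) and those without it (1 to 1.77). The targeted gene Nr5a2 had 23.6, 20.3, 13.1 and 25.2 FPKM in 8-cell controls against 3.76, 4.25, 6.72 and 6.60 FPKM after its knockdown (log2 difference -1.76, limma adjusted p = 0.0143). Gata4 had 3.18, 0.716 and 5.44 FPKM in blastocyst controls against 0, 0.368, 0 and 0 FPKM after its knockdown (exact permutation p = 0.0571, two-sided, the smallest that 3 against 4 libraries allow).

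The stage table holds 1 value per gene and stage, so the levels by stage have no spread and no test, and the order of neighbouring levels cannot be set against replicate error. Rn45s stood at 6967 FPKM in MII oocytes, 6829 in early 2-cell embryos and 2555 in mESC, and at 0 at the other stages. The steps into and out of the early 2-cell stage, from oocyte to zygote and from ICM to mESC thus also cross a difference in Rn45s. The part of this difference in those steps was not tested. Dppa2 RNA was present at low level in oocytes and Dppa4 RNA was close to none. Dppa2 stood at 4.47 FPKM (fragments per kilobase of transcript, scaled to library depth) in MII oocytes, 29.7 in zygotes, 38.8 in early 2-cell, 150 in 2-cell, 339 in 4-cell and 445 in 8-cell embryos, 274 in ICM and 27.0 in mESC. Dppa4 stood at 0.0980, 3.54, 3.31, 190, 240, 285, 138 and 47.4 FPKM at the same stages. Both peaked at the 8-cell stage, but their largest upward steps lay at different stages.

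For Dppa2 the step from MII oocyte to zygote was 2.49 on the log2(FPKM + 1) scale, the scale of all log2 differences below. For Dppa4 the same step was 2.05, at low levels (0.0980 to 3.54 FPKM). From early 2-cell to 2-cell Dppa2 was higher as well, by 1.92. Dppa4 was at 3.54 FPKM or less until the early 2-cell stage, and its step of 5.47 to the 2-cell stage was the largest of any member between neighbouring stages. The ratio of Dppa4 to Dppa2 FPKM was 0.0219 in oocytes, 0.119 in zygotes and 0.0852 in early 2-cell embryos. From the 2-cell stage to the ICM it lay between 0.504 and 1.27, and in mESC it was 1.76. The level of the partners was thus within a factor of 2 of each other only once the 2-cell stage was reached, and in mESC both were below their 8-cell level.

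Dppa5a reached the highest level of the members. It stood at 52.2 FPKM in MII oocytes, 43.0 in zygotes, 48.1 in early 2-cell, 547 in 2-cell, 972 in 4-cell and 1617 in 8-cell embryos, 12622 in ICM and 8963 in mESC. It had the highest FPKM of all genes in ICM and in mESC, and ranked 9th at the 8-cell stage. Its level went up in 2 large steps, of 3.48 between early 2-cell and 2-cell embryos and of 2.96 between 8-cell embryos and ICM.

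Dppa1 had a pattern unlike the other Dppa genes. It stood at 1.51, 3.88 and 2.77 FPKM in MII oocytes, zygotes and early 2-cell embryos, at 0.519 and 0.0977 FPKM in 2-cell and 4-cell embryos, was listed at 0 in 8-cell embryos, and stood at 14.8 FPKM in ICM and 0.0617 FPKM in mESC. Its step from 8-cell embryos to ICM was 3.99 and the step from ICM to mESC was -3.90. Its protein-coding neighbour BC053393 had 45.2 FPKM in ICM and 1.54 FPKM or less at every other stage. Timd2, the next protein-coding gene on the other side, was highest at the 8-cell stage, at 927 FPKM, and at 42.5 FPKM in ICM.

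Khdc1b was among the most abundant RNAs of the oocyte. It stood at 2112 FPKM in MII oocytes, 1881 in zygotes, 1851 in early 2-cell, 489 in 2-cell, 95.5 in 4-cell and 22.4 in 8-cell embryos and 3.86 in ICM, and was listed at 0 in mESC. Its rank from the top was 26 in oocytes, 14 in zygotes, 19 in early 2-cell and 27 in 2-cell embryos, and 2446 at the 8-cell stage. Its level was lower at each step from the early 2-cell stage on, by between 1.92 and 2.34 on the log2 scale.

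Khdc1a and Khdc1c, the near-identical pair, were far lower and went down by smaller steps than Khdc1b from the early 2-cell to the 8-cell stage. Khdc1a stood at 10.2, 18.6, 17.5, 15.8, 9.77, 7.65 and 0.539 FPKM from MII oocyte to ICM, and Khdc1c at 22.4, 37.1, 28.2, 18.2, 15.5, 9.32 and 0.779 FPKM. Both were listed at 0 in mESC. The ratio of Khdc1c to Khdc1a lay between 1.16 and 2.2 over the 7 stages with a value. The ratio of Khdc1b to Khdc1a was 208 in MII oocytes, 31.0 in 2-cell and 2.93 in 8-cell embryos, and 7.16 in ICM, where both genes were at 3.86 FPKM or less.

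**Figure D1:**
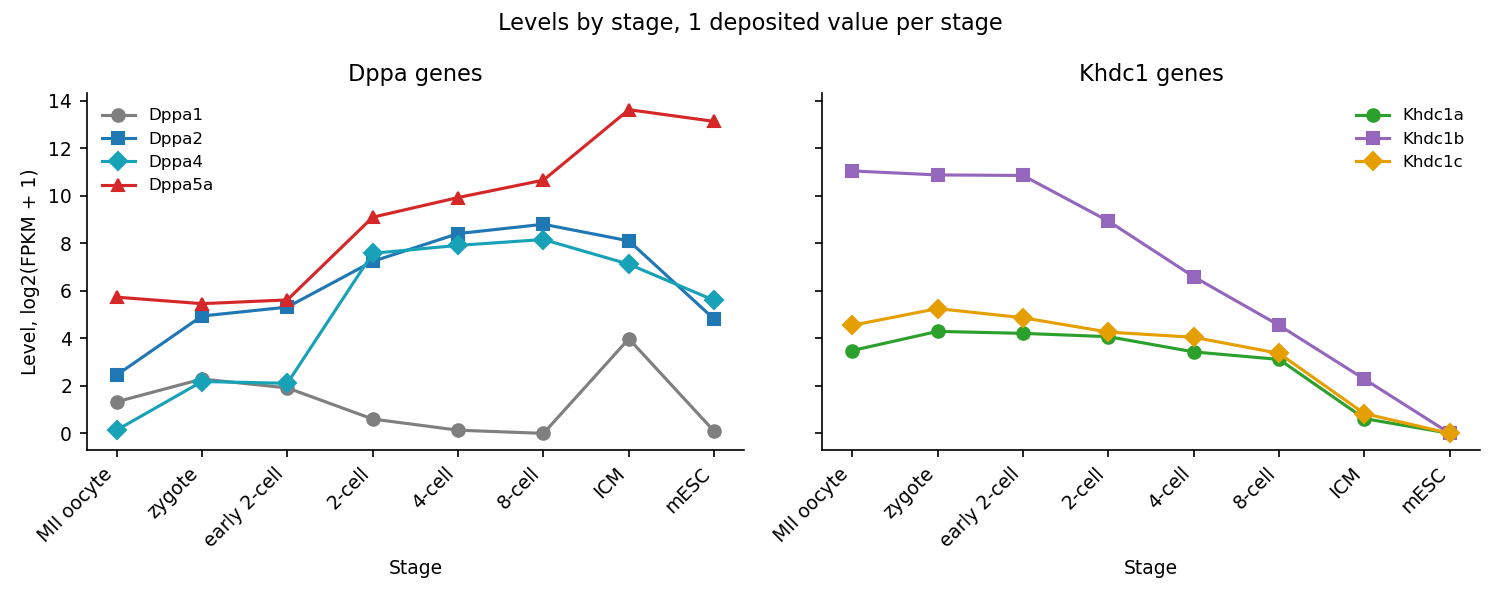
Level of each gene as log2(FPKM + 1) (vertical axis) at the 8 stages (horizontal axis), with Dppa genes on the left and Khdc1 genes on the right and 1 deposited value per point. Dppa5a reaches 12622 FPKM in ICM while Khdc1b goes from 2112 FPKM in MII oocytes to 0 in mESC, and Dppa1 has its only value above 5 FPKM in ICM.

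Counted by a rule of at least 1 log2 unit with 5 FPKM or more at the higher of the stages, 17 of 49 pairs of gene and step differed (7 higher and 10 lower). Many genes of the whole table did so as well, and the shares are given here beside the members. Between MII oocytes and zygotes 1 of 5 members that reached 5 FPKM was higher (Dppa2) against 12.6% of all such genes, and 0 were lower against 21.6%. Between zygotes and early 2-cell embryos no member differed, against 5.33% higher and 8.58% lower.

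From early 2-cell to 2-cell embryos 3 of 6 members were higher (Dppa2, Dppa4 and Dppa5a) against 34.7% of genes, and 1 was lower (Khdc1b) against 34.3%. From 2-cell to 4-cell embryos Dppa2 was higher and Khdc1b lower, against 24.1% and 17.3% of genes. From 4-cell to 8-cell embryos no member was higher against 6.90%, and Khdc1b was lower against 9.71%.

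From 8-cell embryos to ICM all 7 members reached 5 FPKM. Dppa1 and Dppa5a were higher, against 27.8% of genes, and Dppa4 and the 3 Khdc1 genes were lower, against 21.9%. From ICM to mESC none of 4 members was higher, against 11.6%, and Dppa1, Dppa2 and Dppa4 were lower, against 40.6%. Since the background at several steps is close to the members' own share, these counts describe the members and do not set them apart.

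The patterns of the members were compared with those of 9573 genes over the 8 stages by Pearson correlation of log2(FPKM + 1), as a description. Points share the stage and its libraries, and many genes follow the same course. Dppa2 and Dppa4 correlated with r = 0.911, Khdc1a and Khdc1c with 0.988, Khdc1b with 0.916 and 0.950 to those, and Khdc1b and Dppa5a ran opposite to each other with -0.961. The gene most like Khdc1b was Brdt, which encodes a bromodomain protein of the male germ line (r = 0.998), followed by Oog3, an oocyte gene (0.995), and Rnf214 (0.994). Dppa5a was most like Fam136a (0.998), Dppa4 like Cenpt (0.996), Dppa2 like Srpr (0.987), Khdc1a like Arhgap29 (0.997), Khdc1c like Khdc1a, and Dppa1 like Lcp1 (0.983), a gene of the actin cytoskeleton.

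Other genes of these pathways were followed by stage as well. Of the KH-domain relatives, Ooep was at 594 FPKM in zygotes and 2.66 FPKM at the 8-cell stage, and Khdc3 at 6.59 FPKM or less up to the 2-cell stage and at 611 FPKM in ICM. Neither course is that of Khdc1b. Dppa3, which protects the maternal genome from demethylation, was between 1628 and 2527 FPKM from oocyte to 8-cell embryo, 1134 in ICM and 12.3 in mESC.

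RNA of most measured genes of the 2-cell state, some of them known targets of DPPA2 and DPPA4, was higher before the largest step of Dppa4 RNA. With 1 value per stage this order was not tested. Protein was not measured, so these values do not show when DPPA2 or DPPA4 protein was present. Of 27 measured genes of that list, 21 were higher and 1 lower from zygote to early 2-cell (median 3.21, against 0.00 over all genes). At the early 2-cell stage Dppa4 was still at 3.31 FPKM and Dppa2 at 38.8 FPKM. From early 2-cell to 2-cell, when Dppa4 went up, 6 of the 27 were higher and 12 lower (median -0.82), and from 2-cell to 4-cell none was higher and 16 were lower. Of 17 pluripotency genes, 11 were higher and 1 lower from 8-cell embryos to ICM (median 1.20, all genes 0.03). Of 12 germ-line genes that promoter methylation keeps silent elsewhere, 7 were lower and none higher from 2-cell to 4-cell embryos (median -1.12), while 4 were higher and 1 lower from early 2-cell to 2-cell (median 0.15) and 1 was higher and 1 lower from 8-cell embryos to ICM (median -0.11). Khdc1b was lower at each of the steps given for the germ-line genes.

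After Nr5a2 knockdown in 8-cell embryos, Khdc1b rose. The 4 controls had 0.997, 2.39, 1.24 and 2.73 FPKM, and the 4 knockdown libraries had 18.9, 10.8, 7.41 and 33.7 FPKM. Every knockdown library lay above every control, as for 8.38% of the genes tested, and the lowest of them was above 2 times the highest control. The group means were 1.84 ± 0.847 (SD, n = 4) and 17.7 ± 11.7 FPKM (SD, n = 4). The log2 difference was 2.56 (SE 0.41, 95% confidence interval 1.66 to 3.46, limma adjusted p = 0.0166).

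Khdc1b was 1 of 5 members tested that rose, against 1.57% of the 8170 genes tested (128), and 0 of the 5 fell, against 0.698% (57). At an unadjusted p under 0.05, 2 of the 5 members passed, Khdc1b and Dppa5a, as did 1683 of the 8170 genes (20.6%). The call for Khdc1b was lost without control 1 (limma adjusted p = 0.0611) and with no filter on low values (adjusted p = 0.0992). Since its control level is near the pseudocount of 1, the log2 difference was 3.08 with a pseudocount of 0.1 and 1.60 with a pseudocount of 5. The median difference of all genes was 0.12, and -0.01 after median scaling, where Khdc1b kept its call (limma adjusted p = 0.0194) and 65 genes rose and 80 fell.

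The other Khdc1 genes did not pass. Khdc1a stood at 5.15, 2.76, 5.33 and 5.27 FPKM in controls and at 2.34, 3.48, 3.76 and 4.19 FPKM in knockdowns, with overlapping groups (log2 difference -0.33, interval -0.91 to 0.25, limma adjusted p = 0.510). Khdc1c stood at 0.602, 0.913, 0 and 0 FPKM against 1.38, 0.436, 0.734 and 2.04 FPKM, below the filter, with a log2 difference of 0.64 (exact permutation p = 0.143, two-sided, smallest possible 0.0286). That difference was 1.91 with a pseudocount of 0.1 and 0.19 with a pseudocount of 5, at the same p. The ratio of Khdc1b to Khdc1a, which does not depend on the scaling of a library, was 0.193 to 0.864 in controls and 1.97 to 8.07 in knockdowns, without overlap.

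Several values stood beside the rise of Khdc1b. The 5 oocyte markers summed to 23.4 to 39.0 FPKM in controls and 16.4 to 42.8 FPKM in knockdowns, so the sums overlapped between the groups. Of the 5, between 1 and 4 were at 1 FPKM or more in a control and 2 to 3 in a knockdown. In control 2 it was 1, beside a sum of 30.8 FPKM, so such a sum can rest on 1 gene. Retained maternal RNA as a whole was not tested. Cumulus markers were at 0 in all 4 controls and at 0.0488 FPKM or less in the knockdowns. The relative depth was 1 to 2.67 in controls and 1.42 to 2.91 in knockdowns. Of the 3 genes most like Khdc1b by stage, Brdt rose as well, from 0.818 to 1.38 FPKM in controls to 9.42 to 26.5 FPKM in knockdowns (log2 difference 2.81, limma adjusted p = 0.00292). Rnf214 did not pass (0.24, limma adjusted p = 0.603), and Oog3 was below the filter at 0.267 to 1.44 and 0.294 to 2.92 FPKM. Among the named genes most like Khdc1a or Khdc1c by stage, Mob1b rose (1.20, limma adjusted p = 0.0327). Arhgap29 (0.54, limma adjusted p = 0.223) and Fam214a (-0.53, limma adjusted p = 0.411) did not pass.

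In uninjected 8-cell embryos of the stage table Khdc1b stood at 22.4 FPKM, Brdt at 14.6 FPKM and the ratio of Khdc1b to Khdc1a at 2.93. The tables were normalized separately, so FPKM levels are set side by side only. Rn45s also differed, at 0 FPKM in the uninjected 8-cell embryos and 19702 to 29618 FPKM in the injected 8-cell libraries. The ratio of 2.93 lay above the controls (0.193 to 0.864) and within the range of the knockdowns (1.97 to 8.07). Another ratio lay apart from both groups. Khdc1c to Khdc1a was 1.22 in uninjected embryos, 0.117 and 0.331 in controls 1 and 2, and 0.125 to 0.589 in knockdowns. In controls 3 and 4 Khdc1c was at 0. Ratios among these similar genes thus also differ between the tables, and likeness of either group to uninjected embryos was not tested. In the 8-cell controls Khdc1b was at 0.997 to 2.73 against 22.4 FPKM and Brdt at 0.818 to 1.38 against 14.6 FPKM. Khdc1a was at 2.76 to 5.33 against 7.65 FPKM, and Khdc1c at 0 to 0.913 against 9.32 FPKM. Dppa5a was at 408 to 583 against 1617 FPKM, Dppa2 at 101 to 186 against 445 FPKM and Dppa4 at 88.9 to 106 against 285 FPKM. All of these were thus lower than in the stage table, to unlike degrees.

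Dppa5a was lower in 3 of 4 knockdown libraries than in any control, and did not pass. It stood at 583, 412, 408 and 451 FPKM in controls and at 216, 193, 415 and 326 FPKM in knockdowns. Knockdown 3 lay among the controls and the other three below them. The group means were 464 ± 82.1 and 288 ± 103 FPKM (SD, n = 4 each), with a log2 difference of -0.74 (SE 0.23, interval -1.25 to -0.23, limma adjusted p = 0.119). Without knockdown 3 it was -0.94 (limma adjusted p = 0.0418). Knockdown 3 had 6.72 FPKM of Nr5a2 and 208 FPKM of Khdc3. Knockdown 4, with nearly the same Nr5a2 level (6.60 FPKM), had 39.5 FPKM of Khdc3 and a Dppa5a level below all controls.

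For Dppa2 and Dppa4 the groups overlapped. Dppa2 stood at 139, 101, 112 and 186 FPKM against 108, 69.7, 128 and 89.7 FPKM (log2 difference -0.44, interval -0.95 to 0.08, limma adjusted p = 0.316). Dppa4 stood at 106, 96.1, 102 and 88.9 FPKM against 125, 108, 97.0 and 122 FPKM (0.20, interval -0.13 to 0.53, limma adjusted p = 0.485). The interval for Dppa4 was the narrowest of the members and held no change of as much as 1 log2 unit, in either direction. The ratio of Dppa4 to Dppa2 was 0.478 to 0.953 in controls and 0.761 to 1.55 in knockdowns. Dppa1 was listed at 0 in 7 of 8 libraries and at 0.0688 FPKM in control 3 (exact permutation p = 1).

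**Figure D2:**
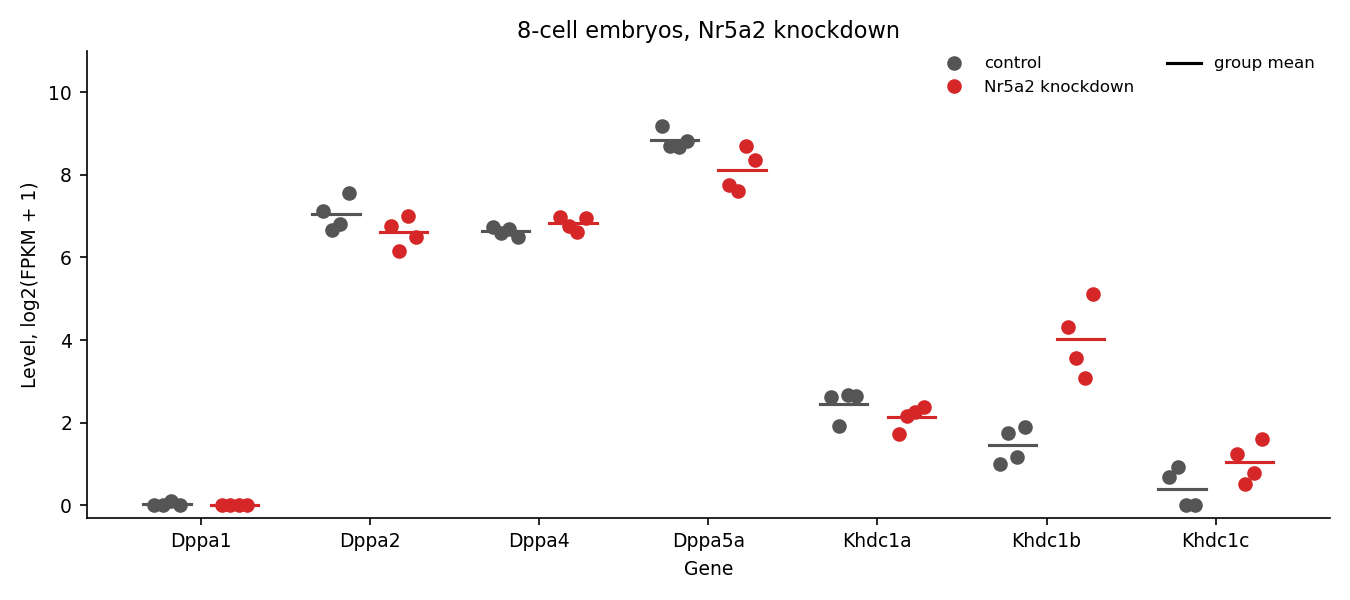
Level of each gene as log2(FPKM + 1) (vertical axis) in the 4 control (grey) and 4 Nr5a2 knockdown (red) 8-cell libraries, with a bar at each group's mean. Only Khdc1b shows groups without overlap, with controls at 0.997 to 2.73 FPKM and knockdowns at 7.41 to 33.7 FPKM.

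Relatives and pathway genes are given beside the members, with lists described by counts and medians. Of the KH-domain and Dppa relatives 3 of 6 were tested, and Khdc3 fell, from 298 to 536 FPKM in controls to 12.2 to 208 FPKM in knockdowns (log2 difference -3.26, limma adjusted p = 0.0346). Khdc1b and Khdc3, both KH-domain genes of the embryo, thus moved in opposite directions. Ooep (-0.32, limma adjusted p = 0.608) and Dppa3 (0.41, limma adjusted p = 0.131) did not pass.

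Of 13 pluripotency genes tested, 0 rose and 1 fell, with a median of -0.40, and Dppa5a at -0.74 was lower than that median. Of these 13 genes, 4 had an unadjusted p under 0.05. Of the 10 apoptosis and endoplasmic reticulum stress genes tested, 0 fell and 5 had an unadjusted p under 0.05 (median 0.59). Limma called 2 of them as higher. These were Pmaip1, the cell death factor Noxa (2.49, limma adjusted p = 0.0143), and Bcl2l11, the cell death factor Bim (1.37, limma adjusted p = 0.0441), whereas the endoplasmic reticulum chaperone gene Hspa5 had 0.82 (limma adjusted p = 0.160). Of the list of the 2-cell state 6 of 30 were tested and limma called 0, with 3 at an unadjusted p under 0.05 (median 0.46). Of the germ-line list 11 of 12 were tested and limma called 0, with 1 at an unadjusted p under 0.05 (median 0.11). Over all genes tested the median was 0.12, 1.57% rose, 0.698% fell, and 20.6% had an unadjusted p under 0.05.

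In blastocysts, which hold trophectoderm beside the inner cells, the members stood in another order. Dppa5a had 1423, 1703 and 1119 FPKM in controls against 1994, 1405, 946 and 1469 FPKM after Gata4 knockdown, between the 12th and the 19th highest gene of its library. In such bulk samples fewer cells of a type and less RNA per cell cannot be told apart. The 6 trophectoderm markers summed to 2192 to 4432 FPKM over the 7 libraries, and the 5 epiblast markers to 40.0 to 122 FPKM.

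No member passed the test with Gata4 knockdown. Of 6 members tested limma called 0, and 0 had an unadjusted p under 0.05. Over all 8782 genes, 0% rose (0) and 0.0342% fell (3), with 202 at an unadjusted p under 0.05, so few calls were made at all. For Dppa5a the log2 difference was 0.01 (SE 0.34, interval -0.68 to 0.70). An interval of this width does not show that the groups are alike.

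Dppa1 was clearly present in blastocysts. It stood at 100, 187 and 115 FPKM in controls and at 294, 199, 52.1 and 131 FPKM in knockdowns, with overlapping groups (means 134 ± 46.2, n = 3, and 169 ± 103 FPKM, n = 4, SD; log2 difference 0.13, interval -0.84 to 1.10, limma adjusted p = 1). The same gene was at 14.8 FPKM in the ICM of the separately normalized stage table, and was listed at 0 in uninjected 8-cell embryos. Its neighbour BC053393 was at 92.4 to 956 FPKM in these libraries, also above its 45.2 FPKM in ICM, while Timd2 was at 44.4 to 162 FPKM.

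Dppa2 stood at 13.3, 36.9 and 8.97 FPKM in controls and at 35.3, 30.7, 18.8 and 15.1 FPKM in knockdowns (0.49, interval -0.48 to 1.45), and the difference was 1.04 without control 2 and 0.079 without control 3. Dppa4 stood at 18.4, 32.7 and 9.89 FPKM against 33.9, 32.9, 20.3 and 8.88 FPKM (0.21, interval -0.77 to 1.20). Neither passed, with limma adjusted p = 1 for both. The ratio of Dppa4 to Dppa2 was 0.588 to 1.39 over the 7 libraries.

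The Khdc1 genes were near the detection limit. Khdc1a stood at 0.653, 4.26 and 0.809 FPKM against 2.70, 2.17, 1.16 and 1.66 FPKM (0.20, limma adjusted p = 1). Khdc1b stood at 0.755, 2.71 and 2.49 FPKM against 1.49, 0.107, 1.32 and 2.39 FPKM (-0.39, limma adjusted p = 1). Khdc1c was below 1 FPKM in all 7 libraries (exact permutation p = 0.8, smallest possible 0.0571).

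The blastocyst libraries were of 2 types, and the members moved with them. Rn45s had no signal in control 2 or in knockdowns 1 and 2, and lay between 37959 and 44718 FPKM in the other 4. Dppa1 was at 187 to 294 FPKM in the 3 libraries without Rn45s and 52.1 to 131 FPKM in the 4 with it. Dppa2 was at 30.7 to 36.9 against 8.97 to 18.8 FPKM, Dppa4 at 32.7 to 33.9 against 8.88 to 20.3 FPKM, and Khdc1a at 2.17 to 4.26 against 0.653 to 1.66 FPKM. For these 4 genes the types did not overlap, with log2 differences of 1.22, 1.27, 1.23 and 0.96, while the median of all genes tested was 0.62. The types also stood apart in this direction for 52.5% of all genes tested, so 4 of the 6 members tested does not set the members apart.

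Dppa5a (0.46), Khdc1b (-0.28) and Khdc1c (-0.02) overlapped between the types. Since 1 of 3 controls and 2 of 4 knockdowns lacked Rn45s, the type moves with the group in part. With the type as a covariate the differences were -0.076 for Dppa1 and -0.069 for Dppa5a, and limma called no member. Within the 4 libraries with Rn45s they were -0.37 and -0.098, and within the 3 without it 0.37 and -0.025. The part of the type in the level of a member in a single library was not tested further.

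**Figure D3:**
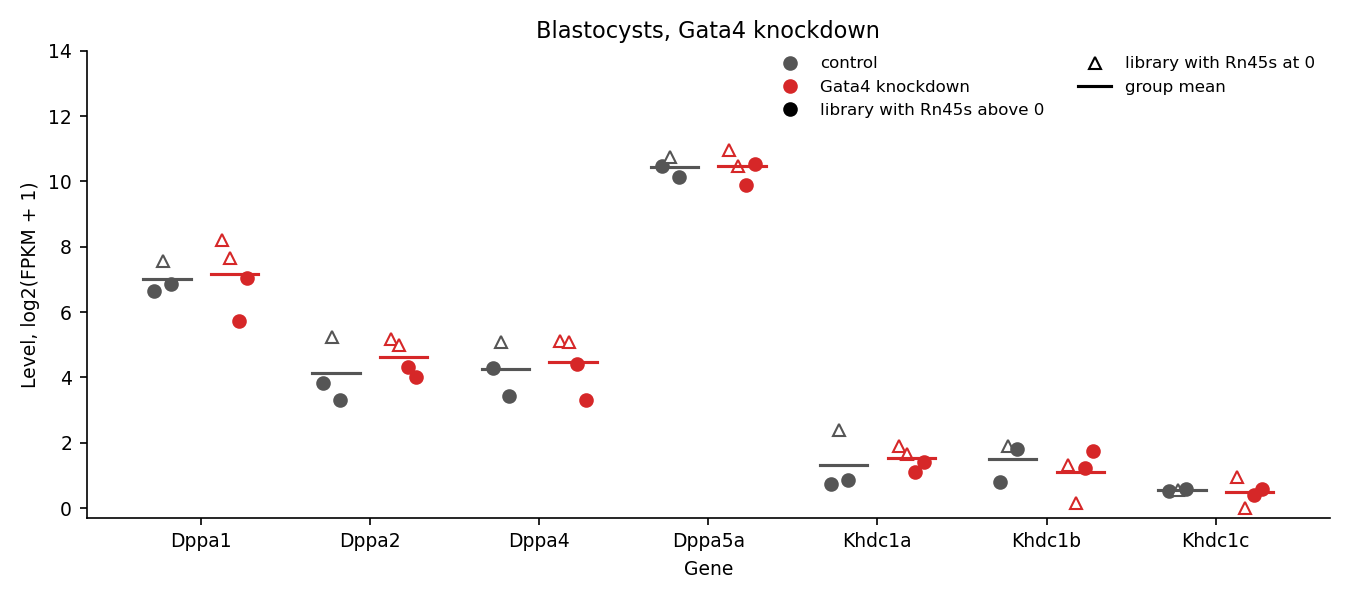
Level of each gene as log2(FPKM + 1) (vertical axis) in the 3 control (grey) and 4 Gata4 knockdown (red) blastocyst libraries, with a bar at each group's mean, filled circles for libraries with Rn45s and open triangles for those without. For Dppa1, Dppa2, Dppa4 and Khdc1a all 3 triangles lie above all 4 circles, and control and knockdown overlap for every gene.

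Relatives and lists gave no call with Gata4 knockdown. Of 3 KH-domain and Dppa relatives, 2 genes of the 2-cell state, 14 pluripotency genes, 8 germ-line genes and 8 apoptosis and stress genes, limma called 0 each, with 1, 0, 3, 1 and 1 at an unadjusted p under 0.05. Their medians were 0.18, 0.05, -0.26, -0.04 and -0.07, against -0.02 over all genes. Khdc3 was at 401 to 964 FPKM and Ooep at 13.5 to 46.7 FPKM in these blastocysts, when Khdc1b was at 2.71 FPKM or less.

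The knockdowns differ in stage, in libraries and in the spread between them, so the fitted differences are set side by side and the contrast between them was not tested. For Khdc1b the difference was 2.56 with Nr5a2 knockdown and -0.39 with Gata4 knockdown, with intervals of 1.66 to 3.46 and -1.19 to 0.41. For Dppa5a it was -0.74 and 0.01. For Dppa2, Dppa4 and Khdc1a the intervals held 0 in both knockdowns.

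**Figure D4:**
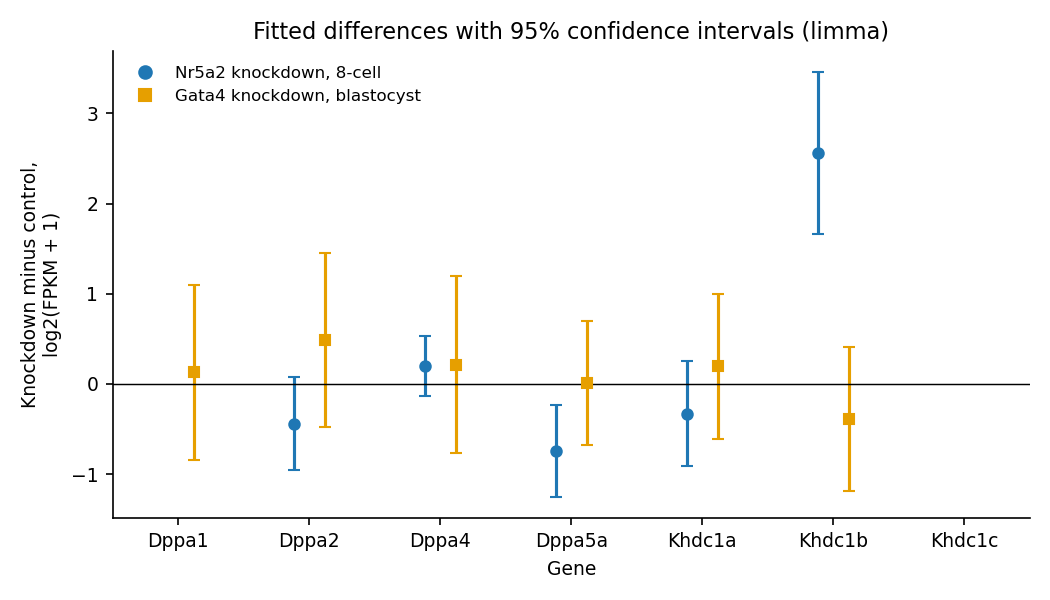
Fitted log2 difference (knockdown minus control, vertical axis) with its 95% confidence interval from limma for each gene, with circles for Nr5a2 knockdown in 8-cell embryos and squares for Gata4 knockdown in blastocysts. Genes below the filter have no point (Dppa1 and Khdc1c for Nr5a2, Khdc1c for Gata4), and Khdc1b with Nr5a2 knockdown lies at 2.56, apart from the rest at -0.74 to 0.49.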

How the data were processed

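The submitters' processing notes name CASAVA 1.8, the aligner STAR 2.4.0 and the build mm9 for all 32 samples, and Cufflinks 2.2.1 for 20 of them. For the other 12 (oocytes, early 2-cell embryos and injected 8-cell embryos), the tool behind the expression values is not given in the sources used here. The authors deposited FPKM values in 3 tables, with 1 value per stage or 1 column per knockdown library. How samples of a stage were joined is not stated, and 0 columns of values were left unused. Depth as read totals is unknown, and relative depth came from the spacing of values under 0.4 FPKM.

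Groups followed the labels. A gene entered the test when the number of libraries at 1 FPKM or more reached the size of the smaller group, and was compared on log2(FPKM + 1) with limma 3.58.1 (R 4.3.3), with a trend in the prior variance and Benjamini-Hochberg adjustment over all genes tested, at a threshold of 0.05. The fits were also run on simulated data, drawn for each gene on its own. Library types and shifts shared by a library were not simulated, so their part in the calls was not tested there. Members below the filter were compared by an exact permutation test over libraries, two-sided. A stage step counted at 1 log2 unit and 5 FPKM in the higher stage. Named genes were the 7 members, the 3 named genes most like each over the 8 stages, their 3 nearest neighbours on each side, the genes of 5 lists and the targeted genes, and the members and lists were chosen with earlier results of these data known. Copies were searched with blastn 2.17.0 against GENCODE M21 transcripts, and upstream sequences came from RefSeq. Other pseudocounts, filters and scalings, a replicate block, library type and leaving out each library were tried. Python 3.11.15 was used with pandas 2.3.3, numpy 2.4.6, matplotlib 3.10.9 and scipy 1.17.1 for the rest.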

Additional observations from a re-analysis of the deposited data

Results flagged for a closer look

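In groups of 4 libraries, a value that stood apart from the other three by more than Dixon's 95% critical value was looked for in 20 groups of member values, where chance gives about 1 in 20, and 2 were found. Khdc1a stood at 2.76 FPKM in control 2 of the 8-cell libraries, below the other three controls at 5.15 to 5.33 FPKM. Dppa1 stood at 0.0688 FPKM in control 3 of the same libraries and at 0 in the other three controls. With 3 values at 0, any remaining value above 0 is flagged by this rule, so that flag carries no information.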

How the results depend on the processing

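Of the 7 members, 1 was called with Nr5a2 knockdown, 0 with no filter on low values, and 0 to 2 with 1 library left out. The 0 came without control 1 and the 2 (Khdc1b and Dppa5a) without knockdown 3. With Gata4 knockdown 0 were called in every setting run. Over all genes, the 128 that rose and 57 that fell with Nr5a2 knockdown became 37 and 18 with a replicate block, 65 and 80 with median scaling, 68 and 71 with quantile normalization, 73 and 35 with a pseudocount of 0.1, and 7 and 4 with no filter. With 1 library left out they were 13 to 177 and 8 to 108. With Gata4 knockdown the 0 and 3 became 4 and 14 with the replicate block, 0 and 1 with a pseudocount of 0.1, 0 and 0 with no filter, either scaling, library type as a covariate or libraries with Rn45s alone, 1 and 0 with those without it, and 0 to 5 and 1 to 25 with 1 library left out. Samples with the same number deviated together with correlations of -0.11 to 0.08 in 8-cell and -0.10 to 0.28 in blastocyst libraries, so numbers were not taken as pairs. With the block Khdc1b kept its call (adjusted p = 0.0276), and no member's call changed.

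For the Nr5a2 knockdown no member's difference changed sign in the settings run. For the Gata4 knockdown signs turned, none of them called. With quantile normalization Dppa1 was -0.013 and Dppa5a -0.16, and with the replicate block Dppa5a was -0.011. With library type as a covariate they were -0.076 and -0.069. Within libraries with Rn45s Dppa1 was -0.37, Dppa4 -0.0058, Dppa5a -0.098 and Khdc1b 0.18, and within those without it Dppa2 was -0.16, Dppa5a -0.025 and Khdc1a -0.62. With 1 library left out the range was -0.22 to 0.61 for Dppa1, 0.079 to 1.04 for Dppa2, -0.20 to 0.62 for Dppa4, -0.16 to 0.20 for Dppa5a, -0.10 to 0.73 for Khdc1a, and -0.74 to -0.072 for Khdc1b. The cause was not tested. By rank correlation over the stages, 2 of the 21 most alike genes stayed among the first 3 (Fam136a for Dppa5a and Brdt for Khdc1b). The 17 stage differences became 20 with no minimum level. Near 1 FPKM, depth limits what can be read for Khdc1a, Khdc1b and Khdc1c in blastocysts.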
